A study of Mus musculus with 24 samples.

Results

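The change that labelled loss of both TBK1 and IKKe made to the 8 h response of mouse macrophages to R837 was measured in 12 of 24 RNA-seq libraries, 3 in each of 4 groups. TBK1-cKD ∆IKKe macrophages carried both alterations by their label and are called labelled double loss here. The 4 groups were TBK1-cKD ∆IKKe after 8 h of R837, TBK1-cKD ∆IKKe untreated, TBK1-WT ∆control after 8 h of R837 and TBK1-WT ∆control untreated. For every gene the response, log2 of R837 over untreated, was taken in each genotype, and the response in TBK1-WT ∆control was subtracted from that in TBK1-cKD ∆IKKe. A response can differ because the untreated (start) level differed, because the level after R837 (end) differed, or through both, so each gene was placed by those 2 differences. The other 12 libraries, TBK1-cKD ∆control and TBK1-WT ∆IKKe with and without R837, entered the fit and served to set the labelled double loss against each single loss.

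All cells were bone marrow-derived macrophages, which are macrophages grown from mouse bone marrow with the growth factor M-CSF. By the series record, cKD stands for a conditional knockout of TBK1, ∆IKKe for a knockout of IKKe, and TBK1-WT ∆control for a wild-type TBK1 without that knockout. The exons removed, the driver of the conditional allele, the ages and the strain behind each genotype were given by none of the sources used here. The protocol text names C57BL/6N wild types on all records, whatever the genotype, and 3 individual mice as the independent replicates. R837, or imiquimod, is a synthetic ligand of Toll-like receptor 7.

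TBK1 and IKKe are kinases related to the canonical IkB kinases. Both phosphorylate IRF3 on the way to type I interferon, and both also restrain signalling by the canonical IkB kinases and RIPK1. Toll-like receptor 7 signals through MyD88, IRAK kinases and TRAF6 to the canonical IkB kinases, MAP kinases and IRF5, which switch on genes of cytokines, chemokines and antimicrobial enzymes. The title of the series names N4BP1, an inhibitor of such cytokine expression, and caspase-8, the protease that cleaves it.

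The 12 libraries held 24.8 to 41.3 M counts in genes. RNAs kept in the nucleus (Malat1, Neat1 and Xist) divided them: their mean level was 8.95 to 9.42 log2 CPM (counts scaled to the size of the library) in 8 libraries and 5.35 to 5.63 in 4. Every untreated library was at the high level. After R837, replicate 3 of TBK1-cKD ∆IKKe and replicate 1 of TBK1-WT ∆control were at the high level, and the other 4 R837 libraries were at the low one. Each of these genotypes thus had 1 R837 library at the high level. Reads outside gene counts were estimated at 10.8 to 12% in high-level libraries and 8.4 to 8.8% in low-level ones. The fit was repeated with R837 libraries of the low level alone beside all untreated libraries, and with high-level libraries alone. In the first of these fits the level and R837 cannot be told apart within a genotype. Macrophage markers were strong in all 12 libraries, with Adgre1, which encodes F4/80, between 2132 and 8234 CPM.

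The targeted genes were read first. Tbk1 stood at 115, 116 and 136 CPM after R837 and 87.8, 90.7 and 88.5 CPM untreated in the libraries labelled double loss, against 148, 118 and 123 CPM after R837 and 102, 104 and 100.4 CPM untreated in TBK1-WT ∆control. Its R837 levels overlapped between the genotypes and its untreated levels were slightly lower in labelled double loss. Neither difference passed the threshold: the start difference was -0.20 ± 0.07 log2 (± SE of the fit, n = 3 libraries per group, adjusted p = 0.0925 by edgeR) and the end difference -0.08 ± 0.07 log2 (adjusted p = 0.445). In TBK1-cKD ∆control, Tbk1 was lower, at 6.2 to 6.25 log2 CPM untreated, against 6.65 to 6.7 in TBK1-WT ∆control. After R837 these were 6.55 to 6.75 and 6.89 to 7.21. Ikbke stood at 77.7, 82.7 and 259 CPM after R837 and 80.6, 76.9 and 81.3 CPM untreated in the libraries labelled double loss, against 406, 220.1 and 233 CPM after R837 and 59, 59.9 and 59.6 CPM untreated in TBK1-WT ∆control. Ikbke RNA was not lower in untreated labelled double loss, where all 3 libraries were above the 3 of TBK1-WT ∆control (start difference 0.42 ± 0.30 log2, adjusted p = 0.476). Its untreated RNA thus goes against the label, and the groups are called by their labels throughout. In TBK1-WT ∆IKKe it was 5.11 to 5.17 log2 CPM untreated, against 5.88 to 5.9 in TBK1-WT ∆control. After R837 these were 6.14 to 6.31 and 7.78 to 8.66. In TBK1-cKD ∆control it was 6.16 to 6.25 untreated, against 6.26 to 6.35 in labelled double loss. After R837 these were 7.9 to 7.95, and 6.28, 6.37 and 8.02. After R837, replicate 3 of labelled double loss lay within the TBK1-WT ∆control range and replicates 1 and 2 below it. Its response differed by -1.45 ± 0.42 log2 (adjusted p = 0.0192), end only, and the estimate ran from -2.26 to -1.13 log2 when 1 library at a time was left out, with the highest adjusted p at 0.0503. The libraries at the high end of each R837 group for Ikbke were those with the high nuclear RNA level, whose part was not tested; with R837 libraries of the low level alone the value was -1.91. RNA does not measure loss of the protein.

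N4bp1 stood at 468, 468 and 502 CPM after R837 and 95.3, 90.0 and 90.8 CPM untreated in the libraries labelled double loss, against 329, 286 and 294 CPM after R837 and 54.2, 51.6 and 53.6 CPM untreated in TBK1-WT ∆control. N4bp1 was higher in labelled double loss both at the start (0.79 ± 0.06 log2, adjusted p = 2e-09) and at the end (0.66 ± 0.06 log2, adjusted p = 9.12e-09) and its difference of responses did not pass the threshold (-0.13 ± 0.08 log2, adjusted p = 0.342). Casp8 stood at 139.5, 128 and 119.8 CPM after R837 and 79.2, 76.6 and 76.7 CPM untreated in the libraries labelled double loss, against 96.5, 97.7 and 100.2 CPM after R837 and 80.5, 76.7 and 78.6 CPM untreated in TBK1-WT ∆control. Casp8 began at overlapping levels and ended higher in labelled double loss: the response differed by 0.42 ± 0.08 log2 (adjusted p = 0.000517), with an end difference of 0.40 ± 0.06 log2 (adjusted p = 7.29e-06).

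Across all genes, 2546 of 14681 tested (17.3%) had a different response by the quasi-likelihood test of edgeR with Benjamini-Hochberg adjustment, at an adjusted p below 0.05. The response was higher in labelled double loss for 1084 genes (7.38% of those tested) and lower for 1462 (9.96%). The difference was at least 1 log2 for 759 of them, 319 higher and 440 lower. The end level alone differed for 1517 of the 2546 (59.6%), both levels for 649 (25.5%), the start level alone for 259 (10.2%) and neither past the threshold for 121 (4.8%). These counts moved with the nuclear RNA level: end only, both and start only were 2362, 1377 and 532 with the level as a term of the fit, 1847, 1116 and 462 with R837 libraries of the low level alone, and 1663, 1300 and 626 with high-level libraries alone. Higher and lower responses were then 1991 and 2429, 1708 and 1848, and 1673 and 2042 in these 3 fits. In absolute size the end difference exceeded the start difference for 1991 of the called genes and the start difference exceeded the end difference for 555. Over all 14681 genes the end difference was called for 32.2% (16.7% higher and 15.5% lower) and the start difference for 13.6% (8.52% higher and 5.1% lower). The 3 libraries of 1 genotype were all above the 3 of the other for 47.3% of genes untreated and for 34.3% after R837.

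**Figure D1:**
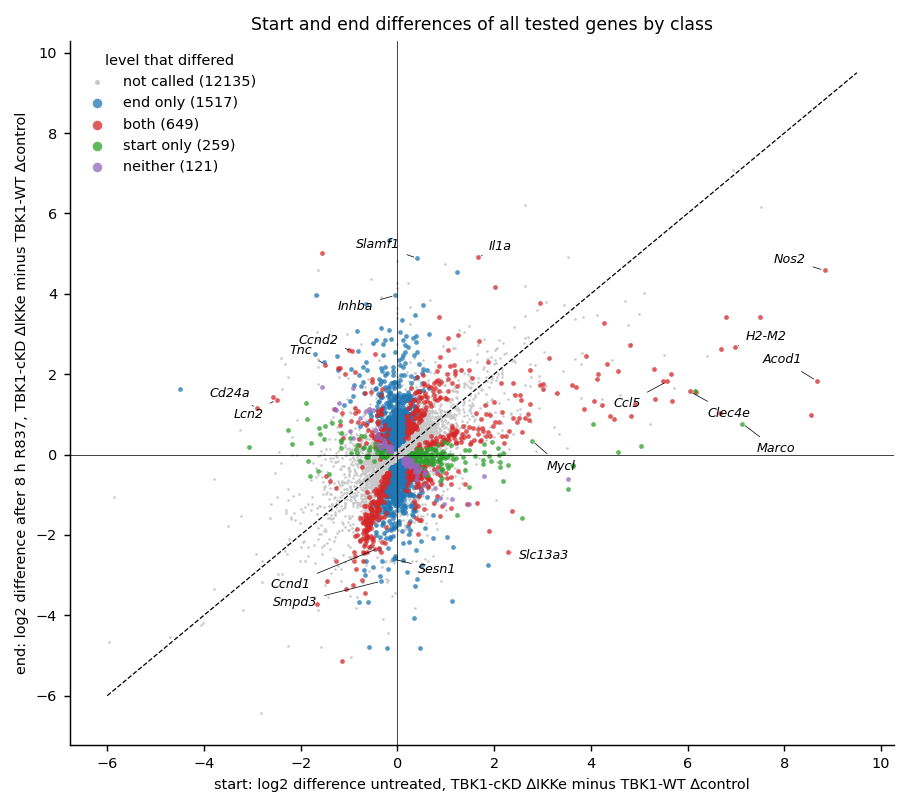
Start difference (log2, untreated, horizontal) against end difference (log2, after 8 h R837, vertical) of every tested gene, TBK1-cKD ∆IKKe minus TBK1-WT ∆control; on the dashed line both are equal, and colours give the level that differed among genes with a different response. Acod1, Clec4e and H2-M2 lie far to the right and below the line, and Slamf1 and Inhba lie above 0 on the vertical axis with start differences near 0.

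The classes had different directions. Among the 259 genes that differed at the start only, 185 began higher and had a lower response, and 74 began lower and had a higher one. Genes that differed at the end only were split into 729 that ended higher and 788 that ended lower. Of the 649 genes that differed at both, 261 were higher at both times, and these divided into 132 with a lower and 129 with a higher response. Another 173 were lower at both times, 168 of them with a lower response. The remaining genes of that class crossed: 125 began higher and ended lower, and 90 began lower and ended higher.

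A difference between R837 and untreated libraries was called for 66.5% of genes in labelled double loss (31.6% higher and 34.8% lower). In TBK1-WT ∆control it was called for 62.6% (30.6% higher and 32% lower). Most R837 libraries of each genotype, and no untreated library, were at the low nuclear RNA level. The part of this in these shares was not tested. Set by the response itself, the most frequent pattern was a fall in both genotypes that was deeper in labelled double loss (715 genes), followed by a rise in both that was larger there (564) and a rise in both that was smaller (304). A shallower fall was seen for 92. R837 raised 251 genes in labelled double loss without a called change in TBK1-WT ∆control, and lowered 217 in the same way. The reverse, a rise or fall called in TBK1-WT ∆control alone, held for 156 and 105 genes. Calls in 1 genotype and not the other are descriptions here, while the difference of responses was tested for all of these genes. In 140 genes the direction was opposite, 71 rising in labelled double loss and falling in TBK1-WT ∆control and 69 the other way.

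Genes were next read in lists chosen with earlier results of these data known. A share called in a list is thus no test of it. Over all tested genes the response was called different for 17.3%. The start was called higher for 8.52% and lower for 5.1%, and the end higher for 16.7% and lower for 15.5%. Receptors and adaptors upstream changed in both directions. Of 28 genes of Toll-like receptor signalling, 12 had a different response (42.9%), 4 higher and 8 lower. Tlr7 stood at 259.5, 232 and 184 CPM after R837 and 215, 198 and 198 CPM untreated in the libraries labelled double loss, against 119, 156 and 158 CPM after R837 and 243, 206 and 206 CPM untreated in TBK1-WT ∆control. Tlr7, the receptor of R837, began at overlapping levels and ended higher in labelled double loss, with replicate 3 of that group, the high-level library, the lowest of its 3; the difference was 0.74 ± 0.16 log2 (adjusted p = 0.00244). Irf5 stood at 181, 181 and 186 CPM after R837 and 288, 288 and 281 CPM untreated in the libraries labelled double loss, against 339, 329.8 and 341 CPM after R837 and 243, 256 and 270.5 CPM untreated in TBK1-WT ∆control. Irf5, the transcription factor downstream of MyD88, fell in labelled double loss and rose in TBK1-WT ∆control, a difference of -1.03 ± 0.07 log2 (adjusted p = 7.13e-10). Traf6, the ubiquitin ligase of the pathway, differed by 0.85 ± 0.11 log2 (adjusted p = 7.86e-06) at the end only. Tlr9, a receptor of DNA, was lower at both times (-0.59 and -1.86 log2) with a difference of responses of -1.27 ± 0.16 log2 (adjusted p = 4.8e-06). Tlr2, a receptor of bacterial lipopeptides, began 1.67 log2 and ended 0.51 log2 above TBK1-WT ∆control. Among 19 genes of the IKK family and its partners, 5 differed (26.3%, against 17.3% of all genes). Casp8, Tab2, Azi2 and Ikbkb were higher by 0.42, 0.32, 0.31 and 0.49 log2, and Ikbke was lower. Ikbkb encodes IKKβ, Tab2 a subunit of the TAK1 kinase complex and Azi2 an adaptor of TBK1. Without 1 library Ikbkb lost the call (highest adjusted p = 0.0555), and under another alternative Tab2 and Azi2 did (0.0669 and 0.123).

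Genes of the NF-kB pathway and its feedback were also higher in labelled double loss before R837. NF-kB dimers are held by IkB proteins and, once freed, switch on their own inhibitors. Of 31 tested, 15 had a different response (48.4%), 12 lower and 3 higher. At the start 23 were called higher and 0 lower, and at the end 22 higher and 3 lower. Nfkbia stood at 999, 1006 and 1029.5 CPM after R837 and 149, 139 and 134 CPM untreated in the libraries labelled double loss, against 788, 784 and 778 CPM after R837 and 45, 44 and 51.7 CPM untreated in TBK1-WT ∆control. Nfkbia (ENSMUSG00000021025, GRCm38 chromosome 12 from 55489410 to 55492647) encodes IkBα; both pairs of groups were apart, the start difference was 1.59 ± 0.06 log2 (adjusted p = 1.24e-13), the end difference 0.37 ± 0.06 log2 (adjusted p = 7.76e-05) and the difference of responses -1.22 ± 0.09 log2 (adjusted p = 2.86e-09). Tnfaip2, a gene induced by TNF, had 1.53 log2 at the start, 0.32 at the end and -1.21 ± 0.07 log2 (adjusted p = 2.35e-10) between responses. Traf1, an adaptor of TNF receptors, had 3.01, 1.75 and -1.27 ± 0.10 log2 (adjusted p = 6.84e-09). Icam1, an adhesion molecule, had 1.73, 0.37 and -1.36 ± 0.11 log2 (adjusted p = 1.06e-08).

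Sod2 (mitochondrial superoxide dismutase), Bcl3, Nfkbie, Birc3 and Relb were likewise higher at both times with a smaller response, between -1.37 and -0.82 log2. The 3 with a larger response were Tnfaip3, Ptgs2 and Zc3h12a. Tnfaip3 encodes A20, an enzyme that edits ubiquitin to limit NF-kB. Tnfaip3 stood at 684, 668 and 748 CPM after R837 and 90.9, 90.9 and 88.4 CPM untreated in the libraries labelled double loss, against 182, 156 and 153 CPM after R837 and 30.5, 34.1 and 32.1 CPM untreated in TBK1-WT ∆control. Both pairs of groups were apart, and the response differed by 0.61 ± 0.11 log2 (adjusted p = 0.000211). Ptgs2, an inducible cyclooxygenase, was 2.95 log2 higher at the start and 3.76 at the end (0.81 ± 0.17 log2, adjusted p = 0.00158). Zc3h12a, the RNase Regnase-1, differed by 0.30 ± 0.08 log2 (adjusted p = 0.0173), with a highest adjusted p of 0.0528 without 1 library. Rel and Nfkbiz ended at -0.32 and -0.36 log2 relative to TBK1-WT ∆control with no called start difference; Rel, a subunit of NF-kB, lost its call without 1 library (highest adjusted p = 0.123). With R837 libraries of the low level alone, 9 of the list were higher and 14 lower.

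Promoter windows from RefSeq (GRCm38.p6, 250 bases before to 50 after the start) were searched on both strands for the consensus of NF-kB, for the letters CCAAT and for TTTGAA. The NF-kB consensus was in 9.55% of all 27025 genes with a window, in 12.4% of the 10116 tested genes and 14.9% of the 1935 called genes that matched one. Of the 15 called NF-kB list members 13 matched a window (not Nfkbiz and Relb) and 8 held the consensus. Of the 24 called effector genes 19 matched (not Arg1, Cd69, Hp, Nos2 and Slc7a2) and 0 held it. A match is a description of the letters, not a bound site. The windows of Acod1 (chr14:103046762-103047061, plus strand), Nfkbia (chr12:55492598-55492897, minus strand) and H2-M2 (chr17:37483505-37483804, minus strand) are shown because these genes, among which Acod1 and H2-M2 are described next, had raised start levels, and capitals mark matches: the NF-kB consensus once in Nfkbia and in 2 places in H2-M2, and CCAAT once in Acod1 and once in H2-M2, with no overlap between matches.
Acod1: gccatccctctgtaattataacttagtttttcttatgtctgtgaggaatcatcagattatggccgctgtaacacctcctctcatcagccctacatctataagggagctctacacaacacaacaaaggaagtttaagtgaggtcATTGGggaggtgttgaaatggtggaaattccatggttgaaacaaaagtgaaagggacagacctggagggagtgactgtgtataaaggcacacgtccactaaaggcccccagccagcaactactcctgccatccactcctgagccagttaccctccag
Nfkbia: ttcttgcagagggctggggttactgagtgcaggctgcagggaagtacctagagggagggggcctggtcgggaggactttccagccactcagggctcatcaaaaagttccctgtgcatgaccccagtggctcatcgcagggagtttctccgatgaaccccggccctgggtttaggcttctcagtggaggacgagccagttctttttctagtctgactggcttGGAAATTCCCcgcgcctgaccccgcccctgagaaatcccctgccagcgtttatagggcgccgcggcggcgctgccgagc
H2-M2: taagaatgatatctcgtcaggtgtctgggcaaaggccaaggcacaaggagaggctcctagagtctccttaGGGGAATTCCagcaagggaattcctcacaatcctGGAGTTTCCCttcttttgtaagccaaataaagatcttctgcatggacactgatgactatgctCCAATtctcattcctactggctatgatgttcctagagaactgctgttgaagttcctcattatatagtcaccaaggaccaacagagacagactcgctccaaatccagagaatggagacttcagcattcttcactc

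H2-M2 stood at 438, 457 and 390.3 CPM after R837 and 269, 256 and 258 CPM untreated in the libraries labelled double loss, against 76.3, 64.9 and 59.2 CPM after R837 and 2.26, 1.89 and 2.04 CPM untreated in TBK1-WT ∆control. H2-M2, a non-classical MHC class I gene, was high in untreated labelled double loss and rose less there after R837: its response was 0.72 log2 in labelled double loss and 5.01 in TBK1-WT ∆control, a difference of -4.30 ± 0.14 log2 (adjusted p = 1.74e-14). Both pairs of groups were apart, which the ranking of genes with both levels different required. Slc13a3 stood at 59, 56.9 and 41.3 CPM after R837 and 24.5, 25.9 and 25.3 CPM untreated in the libraries labelled double loss, against 265, 279.7 and 296 CPM after R837 and 4.77, 4.89 and 5.9 CPM untreated in TBK1-WT ∆control. Slc13a3, a dicarboxylate transporter, crossed, with a start difference of 2.29 ± 0.12 log2 (adjusted p = 9.25e-12) and an end difference of -2.42 ± 0.11 log2 (adjusted p = 6.42e-13). Rasgrp1, an activator of Ras, was 5.68 log2 higher at the start and 1.34 at the end, with a difference of responses of -4.33 ± 0.28 log2 (adjusted p = 3.71e-10).

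Wide gaps were seen in antimicrobial and metabolic effector genes, the enzymes, receptors and secreted proteins with which activated macrophages act on microbes. Of 34 listed, 33 passed the count filter and 24 had a different response (72.7%, against 17.3% of all genes). Of these, 18 were lower and 6 higher, and 16 differed at both levels. The list was chosen with earlier results of these data known. The list's median start difference was 1.26 log2 and its median end difference 1.36, against 0 and -0.01 for all tested genes, and 24 members were called higher at the start and 26 at the end. Acod1 (ENSMUSG00000022126, GRCm38 chromosome 14 from 103046977 to 103056573), whose enzyme makes itaconate, is given first. Acod1 stood at 3554, 3306 and 3058 CPM after R837 and 179.5, 165 and 161 CPM untreated in the libraries labelled double loss, against 908, 951 and 931 CPM after R837 and 0.447, 0.284 and 0.528 CPM untreated in TBK1-WT ∆control. Untreated libraries labelled double loss were all above the 3 of TBK1-WT ∆control, and the R837 libraries also did not overlap. The ranking of genes with both levels different required this of Acod1, and of Clec4e below. The start difference was 8.67 ± 0.15 log2 (adjusted p = 8.43e-20) and the end difference 1.83 ± 0.10 log2 (adjusted p = 4.93e-12); its response was 4.29 log2 in labelled double loss and 11.13 in TBK1-WT ∆control, a difference of -6.84 ± 0.18 log2 (adjusted p = 5.14e-16).

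Clec4e stood at 3125, 3154 and 2346 CPM after R837 and 479, 446 and 425 CPM untreated in the libraries labelled double loss, against 825, 1083 and 1004 CPM after R837 and 6.2, 7.02 and 7.32 CPM untreated in TBK1-WT ∆control. Clec4e encodes Mincle, a receptor for microbial glycolipids, and both pairs of groups were apart; its response was 2.67 log2 in labelled double loss and 7.15 in TBK1-WT ∆control, a difference of -4.48 ± 0.17 log2 (adjusted p = 7.17e-14). Hp, which encodes the haemoglobin-binding protein haptoglobin, had start and end differences of 6.70 and 2.62 log2 and a difference of responses of -4.08 ± 0.20 log2 (adjusted p = 9.97e-12). For Ptges, a prostaglandin E synthase, these were 5.65, 2.01 and -3.63 ± 0.21 log2 (adjusted p = 1e-10). Saa3 stood at 6863, 8489.5 and 17846 CPM after R837 and 466, 405 and 403 CPM untreated in the libraries labelled double loss, against 8326, 4281 and 4195 CPM after R837 and 0.831, 0.567 and 2.21 CPM untreated in TBK1-WT ∆control. Saa3, a serum amyloid A gene with near-identical relatives whose reads may be shared, overlapped between the R837 groups and was highest in each R837 group in the library with the high nuclear RNA level, whose part was not tested. Its difference of responses was -7.58 ± 0.58 log2 (adjusted p = 4.73e-09). It was -7.72 log2 with R837 libraries of the low level alone and -7.48 log2 with high-level libraries alone.

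Nos2, the inducible nitric oxide synthase, had almost no counts in untreated TBK1-WT ∆control, so its counts are given. Untreated there were 353, 244 and 322 counts in the libraries labelled double loss and 2, 0 and 0 in TBK1-WT ∆control, a CPM ratio of 562 (95% counting interval 155 to 4648). After R837 there were 116202, 116687 and 136738 counts in labelled double loss and 7301, 5192 and 4183 in TBK1-WT ∆control, a ratio of 23.6 (95% counting interval 23.2 to 24). Nos2 was therefore higher at both times, with the wider gap at the start, and its difference of responses was negative and called (adjusted p = 1.04e-05). Such intervals cover counting error only. Fpr2, a formyl peptide receptor, had 312, 218 and 260 untreated counts in labelled double loss and 3, 4 and 2 in TBK1-WT ∆control, and an end ratio of 2.08 (95% counting interval 2.03 to 2.13).

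Marco, a scavenger receptor, passed the threshold at the start only. Marco stood at 43.7, 48 and 129 CPM after R837 and 13.2, 11.8 and 11.9 CPM untreated in the libraries labelled double loss, against 81.9, 22 and 25.3 CPM after R837 and 0.0426, 0.0709 and 0.165 CPM untreated in TBK1-WT ∆control. The untreated groups were apart, with 10 counts over the 3 libraries of TBK1-WT ∆control. The R837 groups overlapped, each with its high nuclear RNA library on top. At either level labelled double loss was the higher, with 43.7 and 48 against 22 and 25.3 CPM at the low level and 129 against 81.9 CPM at the high one. The difference of responses was -6.36 ± 0.94 log2 (adjusted p = 3.7e-05). The 6 effector genes with a higher response were Lcn2, Slc7a2, Ch25h, Upp1, Hdc and Arg1. Lcn2 stood at 790.4, 882 and 904 CPM after R837 and 0.244, 0 and 0.0588 CPM untreated in the libraries labelled double loss, against 310, 346 and 351 CPM after R837 and 0.66, 0.662 and 0.626 CPM untreated in TBK1-WT ∆control. Lcn2, which encodes a siderophore-binding protein, was the only tested member of the list with a called lower start, -2.50 ± 0.46 log2 (adjusted p = 0.000495), on 11 untreated counts over the 3 libraries in labelled double loss and 78 in TBK1-WT ∆control. It ended 1.36 log2 higher, a difference of responses of 3.85 ± 0.46 log2 (adjusted p = 2.43e-06). Slc7a2, an arginine transporter, was higher at both times by 1.26 and 2.97 log2. Ch25h (cholesterol 25-hydroxylase), Upp1 (uridine phosphorylase) and Hdc (histidine decarboxylase) ended 2.67, 2.47 and 1.98 log2 higher from start levels that did not differ past the threshold. Arg1 (arginase) passed narrowly, at 1.87 ± 0.64 log2 (adjusted p = 0.0479). Arg1 and Hdc lost the call without 1 library (highest adjusted p = 0.176 and 0.193).

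**Figure D2:**
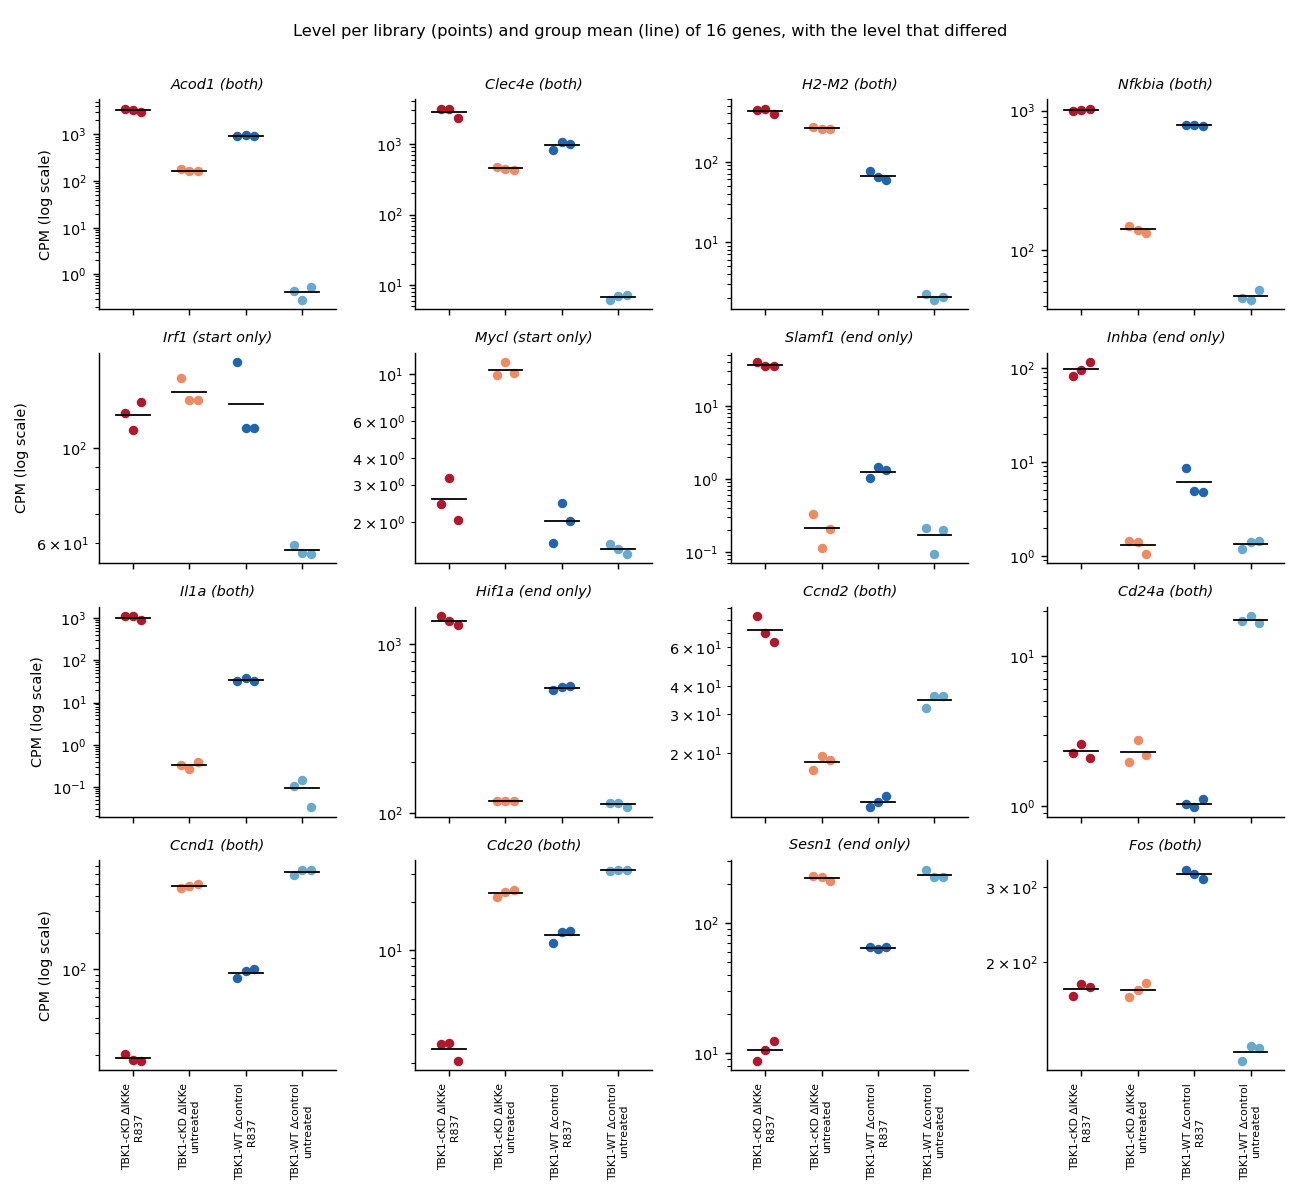
Level per library in CPM (log scale) of 16 genes in the 4 groups, with the group mean as a line and the level that differed in each title. In Acod1, Clec4e and H2-M2 the untreated TBK1-cKD ∆IKKe libraries are raised above the untreated TBK1-WT ∆control libraries, in Inhba and Hif1a the untreated libraries lie close together and the R837 libraries apart, and in Ccnd1 and Cdc20 the R837 libraries of TBK1-cKD ∆IKKe are the lowest.

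Cytokine genes with a called difference mostly had larger responses. Of 34 listed, 30 passed the filter and 14 had a different response (46.7%), 13 higher and only Tnf lower. At the end 26 of the 30 were called higher and 0 lower, and at the start 9 higher and 0 lower. The median difference of responses was 1.29 log2, against -0.04 for all tested genes. That median includes members with almost no untreated counts, such as Il6, Il12b and Csf3, whose fitted responses are limited by depth. Inhba stood at 81.7, 94.7 and 114 CPM after R837 and 1.44, 1.41 and 1.06 CPM untreated in the libraries labelled double loss, against 8.56, 4.96 and 4.82 CPM after R837 and 1.19, 1.39 and 1.45 CPM untreated in TBK1-WT ∆control. Inhba (ENSMUSG00000041324, GRCm38 chromosome 13 from 16011851 to 16031621) encodes the activin A subunit; untreated groups overlapped, R837 groups were apart and its response was 6.22 log2 in labelled double loss and 2.21 in TBK1-WT ∆control, a difference of 4.0 ± 0.34 log2 (adjusted p = 2.08e-08), end only. Il1a stood at 1111, 1121 and 887 CPM after R837 and 0.325, 0.26 and 0.382 CPM untreated in the libraries labelled double loss, against 32.7, 38.5 and 32.3 CPM after R837 and 0.106, 0.142 and 0.033 CPM untreated in TBK1-WT ∆control. Il1a encodes interleukin 1α, and its counts before R837 were few (32 in labelled double loss and 12 in TBK1-WT ∆control over 3 libraries). The end difference was 4.91 ± 0.13 log2 (adjusted p = 1.58e-16), and the difference of responses 3.24 ± 0.55 log2 (adjusted p = 0.000183) with both levels called. Il1rn stood at 13676, 12669 and 9072 CPM after R837 and 99.2, 101 and 107 CPM untreated in the libraries labelled double loss, against 1974, 3247 and 3142 CPM after R837 and 52.8, 63.4 and 57.4 CPM untreated in TBK1-WT ∆control. Il1rn, the interleukin 1 receptor antagonist, was higher at both times, and its response differed by 1.26 ± 0.24 log2 (adjusted p = 0.000529).

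Tnf stood at 257, 271 and 296 CPM after R837 and 50.6, 51.2 and 49 CPM untreated in the libraries labelled double loss, against 184, 156 and 161 CPM after R837 and 19.1, 20.7 and 19.2 CPM untreated in TBK1-WT ∆control. Tnf, the inflammatory cytokine, was higher in every labelled double loss library at both times, and more so at the start (1.35 log2) than at the end (0.71 log2), and the difference of responses was -0.64 ± 0.10 log2 (adjusted p = 9.71e-05). Hbegf, a growth factor of the EGF family, had a response of 0.08 log2 in labelled double loss that was not called and fell in TBK1-WT ∆control (-3.21 log2), a difference of 3.29 ± 0.38 log2 (adjusted p = 1.92e-06). Osm, oncostatin M, had a called rise in labelled double loss alone, with a difference of 1.46 ± 0.17 log2 (adjusted p = 2.16e-06), end only. Il1b differed by 0.89 ± 0.28 log2 (adjusted p = 0.0292), a call lost without 1 library (highest adjusted p = 0.195) and among high-level libraries (0.0758). Il10, the anti-inflammatory cytokine, differed by 0.64 ± 0.17 log2 (adjusted p = 0.0101), end only.

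For Il6, Il12b and Csf3, which encode interleukin 6, a subunit of interleukin 12 and the growth factor G-CSF and were named after their values were seen, the untreated level was too low for a difference of responses to be measured. Il6 had 5073, 5889 and 5656 counts after R837 in labelled double loss and 694, 549 and 402 in TBK1-WT ∆control, a CPM ratio of 10.8 (95% counting interval 10.2 to 11.3), while its untreated counts were 0, 0 and 2 in labelled double loss and 0, 0 and 0 in TBK1-WT ∆control. Il12b had 13859, 15372 and 14068 counts after R837 in labelled double loss, against 1578, 1530 and 1315 in TBK1-WT ∆control, a ratio of 10.4 (95% counting interval 10.1 to 10.8). Csf3 had 1564, 1894 and 2641 counts after R837 in labelled double loss, against 355, 167 and 117 in TBK1-WT ∆control, a ratio of 10.2 (95% counting interval 9.37 to 11), and 0 counts in all 6 untreated libraries. With a floor of 3 counts over a group, Csf3 was at least 2194-fold higher after R837 in labelled double loss and at least 264-fold higher in TBK1-WT ∆control. The difference of responses did not pass for Il6 (adjusted p = 0.759) or Il12b (0.806), so that a difference was not detectable at these depths. Of 19 type I and III interferon genes 0 passed the count filter.

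Chemokines were divided. Of 24 tested, 13 had a different response (54.2%), 5 higher and 8 lower. The 5 higher were CC chemokines that attract monocytes: Ccl2, Ccl3, Ccl4, Ccl7 and Ccl12. Ccl3 stood at 989, 998 and 829.7 CPM after R837 and 47.4, 51.3 and 48.5 CPM untreated in the libraries labelled double loss, against 245, 278 and 296 CPM after R837 and 53.3, 54 and 53.8 CPM untreated in TBK1-WT ∆control. The untreated libraries of labelled double loss were slightly below those of TBK1-WT ∆control without a called difference, and the R837 libraries were well above; the difference was 1.91 ± 0.10 log2 (adjusted p = 1.37e-11), end only. Ccl4 differed by 1.45 ± 0.12 log2 (adjusted p = 2.08e-08), also end only, and Ccl2 by 1.39 ± 0.17 log2 (adjusted p = 3.72e-06), having begun -0.54 log2 and ended 0.85 log2 relative to TBK1-WT ∆control. Ccl5 stood at 1649, 1869 and 2316 CPM after R837 and 114, 95 and 87.8 CPM untreated in the libraries labelled double loss, against 603, 520.4 and 534 CPM after R837 and 1.49, 1.37 and 3.66 CPM untreated in TBK1-WT ∆control. Ccl5 was higher at both times with the wider gap at the start, and the difference of responses was -3.76 ± 0.30 log2 (adjusted p = 1.05e-08). The neutrophil chemokines Cxcl2 and Cxcl1 were higher at the start by 3.89 and 3.14 log2 and at the end by 2.46 and 2.40. Cxcl1, with -0.74 ± 0.22 log2 (adjusted p = 0.0241), lost the call with R837 libraries of the low level alone (adjusted p = 0.14). Cxcl10, an interferon-induced chemokine, differed at the start only (1.77 log2 at the start, -0.13 at the end, -1.90 ± 0.39 log2, adjusted p = 0.00113).

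**Figure D3:**
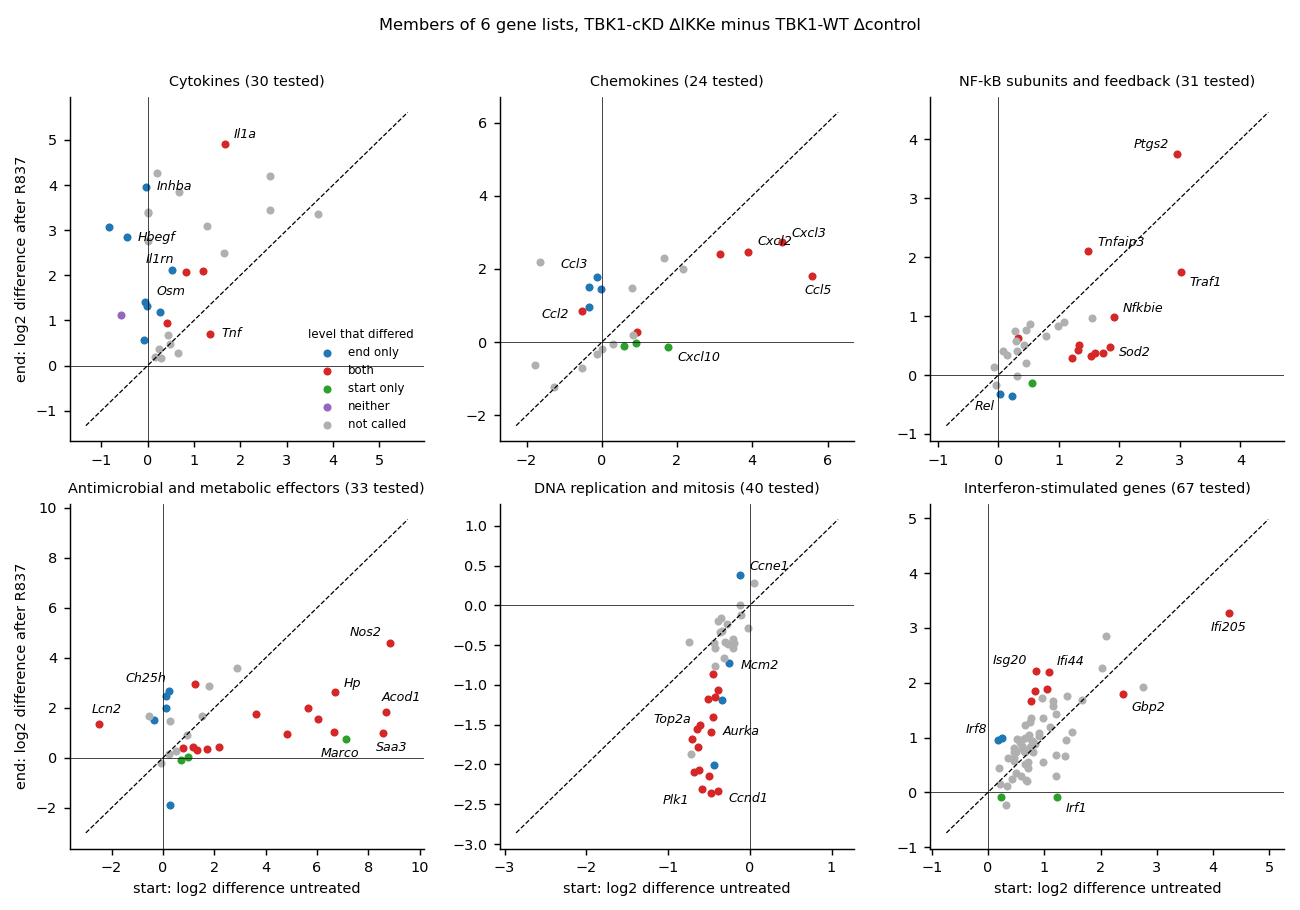
Start difference against end difference (log2, TBK1-cKD ∆IKKe minus TBK1-WT ∆control) of the tested members of 6 gene lists, coloured by the level that differed, with the dashed line where both are equal. Cytokines lie mainly above the line, effector genes mainly right of and below it, and replication and mitosis genes below 0 on both axes and below the line.

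Interferon-stimulated genes were raised in labelled double loss before and after R837. Of 67 tested, 57 were called higher at the start and 54 at the end, against 8.52% and 16.7% of all genes, and 0 lower at either time. The response differed for 11 (16.4%), close to the 17.3% of all genes, 7 higher and 4 lower. Irf1 stood at 121, 110 and 128 CPM after R837 and 146, 129 and 129 CPM untreated in the libraries labelled double loss, against 158, 111 and 111 CPM after R837 and 59.4, 57 and 56.7 CPM untreated in TBK1-WT ∆control. Irf1, a transcription factor, differed at the start only: untreated groups were apart, R837 groups overlapped, and the difference was -1.31 ± 0.15 log2 (adjusted p = 1.33e-06). Its highest R837 library in TBK1-WT ∆control was the one at the high nuclear RNA level, whose part was not tested. Irf8 stood at 282, 279 and 246 CPM after R837 and 218, 214 and 213 CPM untreated in the libraries labelled double loss, against 126, 147 and 142 CPM after R837 and 188, 189 and 193 CPM untreated in TBK1-WT ∆control. Irf8, a factor of the monocyte lineage, moved in opposite directions, 0.32 ± 0.06 log2 (adjusted p = 7.66e-05) in labelled double loss and -0.46 ± 0.06 log2 (adjusted p = 1.12e-06) in TBK1-WT ∆control, and differed at the end only. Herc6, Phf11d, Isg20 and Ifi44 were higher at both times with larger responses, by 0.89, 1.02, 1.36 and 1.10 log2, and Sp100 differed by 0.75 ± 0.13 log2 (adjusted p = 0.000299) at the end only. Herc6 encodes a ligase of ISG15, Isg20 an exonuclease and Sp100 a nuclear body protein. With R837 libraries of the low level alone 15 members were higher and 5 lower, and with high-level libraries alone 9 and 11.

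Of 22 MHC class I presentation genes tested, 19 were called higher and 1 lower at the start, against 8.52% and 5.1% of all genes. At the end 20 were called higher and 0 lower, against 16.7% and 15.5% of all genes. A larger response was called for 5 (22.7%, against 17.3% of all genes), all with both levels different, and a smaller one for 0. Tap2 stood at 330.3, 296 and 248 CPM after R837 and 109, 102 and 100.2 CPM untreated in the libraries labelled double loss, against 106, 119.7 and 119.9 CPM after R837 and 62.3, 69.7 and 71.6 CPM untreated in TBK1-WT ∆control. Tap2, a subunit of the peptide transporter, differed by 0.73 ± 0.13 log2 (adjusted p = 0.000224). H2-T22, H2-Q4, Psmb8 and Psme1 were the others, with 0.73, 0.34, 0.48 and 0.31 log2, and H2-Q4 and H2-T22 have close relatives whose reads may be shared. H2-Q4, Psme1 and Psmb8, the last pair of the proteasome, lost the call without 1 library (highest adjusted p = 0.0846, 0.0906 and 0.1). With R837 libraries of the low level alone, beside all untreated libraries, 8 members were higher. Of 17 class II and costimulatory genes, 5 differed (29.4%). Cd86 stood at 24.5, 22.1 and 21.1 CPM after R837 and 7.3, 8.55 and 7.71 CPM untreated in the libraries labelled double loss, against 5.51, 6.31 and 6.09 CPM after R837 and 5.92, 6.17 and 5.77 CPM untreated in TBK1-WT ∆control. Cd86, a costimulatory ligand, rose in labelled double loss and had no called change in TBK1-WT ∆control, a difference of 1.52 ± 0.15 log2 (adjusted p = 2.22e-07). H2-DMa ended -0.55 log2 relative to TBK1-WT ∆control and had a lower response (-0.78 ± 0.16 log2, adjusted p = 0.00105).

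Among 33 immediate early and MAP kinase feedback genes 20 had a different response (60.6%), 13 higher and 7 lower. Fos stood at 167, 178 and 175 CPM after R837 and 166, 172 and 179 CPM untreated in the libraries labelled double loss, against 329, 321 and 313 CPM after R837 and 118, 128 and 126 CPM untreated in TBK1-WT ∆control. Fos, a subunit of AP-1, had no called change with R837 in labelled double loss and rose in TBK1-WT ∆control; it began higher and ended lower, and the difference was -1.37 ± 0.09 log2 (adjusted p = 4.37e-10). Myc stood at 8.55, 9.52 and 9.21 CPM after R837 and 36.9, 37.9 and 40.5 CPM untreated in the libraries labelled double loss, against 25.3, 25.1 and 24.5 CPM after R837 and 33.4, 37.7 and 35.4 CPM untreated in TBK1-WT ∆control. Myc, a growth regulator, fell further in labelled double loss from overlapping start levels, a difference of -1.57 ± 0.13 log2 (adjusted p = 2.08e-08). The dual-specificity phosphatases Dusp5, Dusp16, Dusp1 and Dusp6, which switch off MAP kinases, all had larger responses, by 2.13, 1.23, 0.90 and 0.81 log2. Dusp5 stood at 33.6, 32.2 and 26.6 CPM after R837 and 11.5, 12.2 and 11.3 CPM untreated in the libraries labelled double loss, against 8.76, 10.1 and 8.48 CPM after R837 and 13.9, 15 and 16.6 CPM untreated in TBK1-WT ∆control. Dusp5 rose in labelled double loss (1.40 ± 0.13 log2, adjusted p = 6.71e-09) and fell in TBK1-WT ∆control (-0.73 ± 0.13 log2, adjusted p = 7.79e-05), end only. The AP-1 genes Fosl1 and Fosl2 differed by 2.57 and 1.69 log2, and the nuclear receptors Nr4a3 and Nr4a1 by 3.36 and 1.20, both having begun lower and ended higher.

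Of 29 glycolysis and HIF1 genes 5 had a larger response (17.2%, against 17.3% of all genes), 0 a smaller one, and all 5 differed at the end only. Hif1a stood at 1473, 1378 and 1312 CPM after R837 and 118, 118 and 118 CPM untreated in the libraries labelled double loss, against 536, 562 and 568 CPM after R837 and 115, 114 and 108 CPM untreated in TBK1-WT ∆control. Hif1a (ENSMUSG00000021109, GRCm38 chromosome 12 from 73901375 to 73947530) encodes the hypoxia-inducible factor; its response was 3.56 log2 in labelled double loss and 2.31 in TBK1-WT ∆control, a difference of 1.25 ± 0.07 log2 (adjusted p = 6.36e-11). Pfkfb3 stood at 2703, 2729 and 3290.3 CPM after R837 and 79.9, 82 and 85.2 CPM untreated in the libraries labelled double loss, against 550.2, 459 and 479.8 CPM after R837 and 57.9, 64.7 and 64 CPM untreated in TBK1-WT ∆control. Pfkfb3, an activator of glycolytic flux, differed by 2.14 ± 0.19 log2 (adjusted p = 5.3e-08). Hk1 (hexokinase), Pfkp (phosphofructokinase) and Ddit4 (an mTORC1 inhibitor) differed by 0.80, 0.53 and 2.40 log2, and Pfkp lost the call without 1 library (highest adjusted p = 0.0899). In other metabolic lists the response differed for 2 of 23 cholesterol synthesis genes (8.7%) and 3 of 14 LXR targets (21.4%). It differed for 3 of 30 genes of the ATF4 and unfolded protein response (10%) and 7 of 37 of autophagy and the lysosome (18.9%). NRF2 targets had 7 of 20 (35%), 4 higher and 3 lower. Nr1h3 stood at 197, 189 and 178 CPM after R837 and 80.1, 75.2 and 69.5 CPM untreated in the libraries labelled double loss, against 178, 203 and 199 CPM after R837 and 21.3, 19.1 and 20.4 CPM untreated in TBK1-WT ∆control. Nr1h3, which encodes LXRα, differed at the start only (-1.93 ± 0.10 log2, adjusted p = 3.39e-11). Dhcr7, the last enzyme of cholesterol synthesis, ended -1.51 log2 relative to TBK1-WT ∆control (-1.44 ± 0.16 log2, adjusted p = 1.4e-06), Herpud1, of endoplasmic reticulum degradation, -1.02 log2 (-1.0 ± 0.12 log2, adjusted p = 2.94e-06) and the autophagy receptor gene Tax1bp1 1.22 log2 (1.12 ± 0.14 log2, adjusted p = 6.01e-06).

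Cell death genes were split evenly, 14 of 32 with a different response (43.8%), 7 higher and 7 lower. Nlrp3 stood at 800.3, 802 and 734 CPM after R837 and 54.5, 54.1 and 53.9 CPM untreated in the libraries labelled double loss, against 251, 253 and 241 CPM after R837 and 43, 45.3 and 45.6 CPM untreated in TBK1-WT ∆control. Nlrp3, the inflammasome sensor, was higher at both times and its response larger by 1.37 ± 0.10 log2 (adjusted p = 1.45e-09). Pycard stood at 85.5, 76.9 and 63.9 CPM after R837 and 85.5, 83.7 and 89.3 CPM untreated in the libraries labelled double loss, against 131, 157 and 160.4 CPM after R837 and 83.4, 85.9 and 85.7 CPM untreated in TBK1-WT ∆control. Pycard, the inflammasome adaptor ASC, had a response of -0.19 log2 in labelled double loss that was not called and rose in TBK1-WT ∆control (0.81 log2), a difference of -1.01 ± 0.12 log2 (adjusted p = 3.21e-06), end only. The death receptor gene Fas differed by -1.19 ± 0.19 log2 (adjusted p = 8.88e-05), with a higher start (1.77 log2) than end (0.58). Of 22 p53 targets 8 differed (36.4%), 4 higher and 4 lower. Sesn1, a sestrin, fell in both genotypes, to 8.7, 10.6 and 12.4 CPM in labelled double loss against 64.9, 63.4 and 64.9 CPM in TBK1-WT ∆control, from overlapping start levels, a difference of -2.51 ± 0.17 log2 (adjusted p = 6.24e-10). Cdkn1a, the cell cycle inhibitor p21, ended 1.15 log2 higher (0.91 ± 0.12 log2, adjusted p = 1.37e-05).

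DNA replication and mitosis genes fell with R837 in every case, 40 of 40 in both genotypes, with a median response of -2.56 log2 in labelled double loss and -1.94 in TBK1-WT ∆control. Of the 40, 19 had a lower response and only Ccne1 a higher one (50% called), 16 with both levels different. At the start 22 were called lower and 0 higher, and at the end 31 lower and 2 higher. Ccnd1 stood at 20.2, 18.3 and 17.9 CPM after R837 and 465, 475 and 500.4 CPM untreated in the libraries labelled double loss, against 85.5, 96.5 and 101 CPM after R837 and 588, 648 and 650.4 CPM untreated in TBK1-WT ∆control. Ccnd1 (ENSMUSG00000070348, GRCm38 chromosome 7 from 144929931 to 144939925) encodes cyclin D1, and both pairs of groups were apart; the start difference was -0.39 ± 0.07 log2 (adjusted p = 0.000444), the end difference -2.33 ± 0.08 log2 (adjusted p = 6.12e-15) and the difference of responses -1.94 ± 0.10 log2 (adjusted p = 2.6e-11). Cdc20 stood at 2.61, 2.64 and 2.05 CPM after R837 and 21.6, 22.9 and 23.6 CPM untreated in the libraries labelled double loss, against 11.1, 13 and 13.2 CPM after R837 and 31.3, 31.7 and 31.5 CPM untreated in TBK1-WT ∆control. Cdc20, an activator of the anaphase-promoting complex, differed by -1.88 ± 0.20 log2 (adjusted p = 5.23e-07). Bub1b and Aurka, of the spindle checkpoint and spindle poles, differed by -1.65 ± 0.18 log2 (adjusted p = 8.12e-07) and -1.12 ± 0.13 log2 (adjusted p = 1.39e-06). Ccne1, cyclin E1, fell less in labelled double loss (0.50 ± 0.14 log2, adjusted p = 0.0177) and lost the call without 1 library (highest adjusted p = 0.0601). In bulk RNA, fewer cycling cells and less of these RNAs per cell cannot be told apart.

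The windows of called replication and mitosis genes held TTTGAA in 10 of 17 (58.8%) and CCAAT in 13 (76.5%), against 20.2% and 41.1% of all genes with a window and 16.2% and 42.9% of called genes with one; Aurkb, Ccna2 and Ccnd1 of the 20 called members matched none. TTTGAA is the core of the cell cycle homology region and CCAAT the NF-Y box found in many mitotic promoters. Those of Cdc20 (chr4:118437294-118437593, minus strand) and Plk1 (chr7:122159185-122159484, plus strand) are shown as 2 with both, in capitals and without overlap.
Cdc20: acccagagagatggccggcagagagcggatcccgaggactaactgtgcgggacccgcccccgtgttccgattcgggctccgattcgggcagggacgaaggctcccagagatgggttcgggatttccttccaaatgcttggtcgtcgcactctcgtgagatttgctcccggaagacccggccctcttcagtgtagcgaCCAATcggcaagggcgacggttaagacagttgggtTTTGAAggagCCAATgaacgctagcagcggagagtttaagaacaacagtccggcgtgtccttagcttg
Plk1: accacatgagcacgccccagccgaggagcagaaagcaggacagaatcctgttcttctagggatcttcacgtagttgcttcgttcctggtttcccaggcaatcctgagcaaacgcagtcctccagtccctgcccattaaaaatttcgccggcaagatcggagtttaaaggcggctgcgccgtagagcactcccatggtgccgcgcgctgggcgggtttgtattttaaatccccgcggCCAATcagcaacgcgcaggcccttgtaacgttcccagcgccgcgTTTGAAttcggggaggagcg
Plk1, a mitotic kinase chosen here after its values were seen, had 4.69, 3.39 and 1.91 CPM after R837 in labelled double loss, against 14.1, 18.3 and 16.4 CPM in TBK1-WT ∆control, and a difference of responses of -1.73 ± 0.26 log2 (adjusted p = 4.4e-05).

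**Figure D4:**
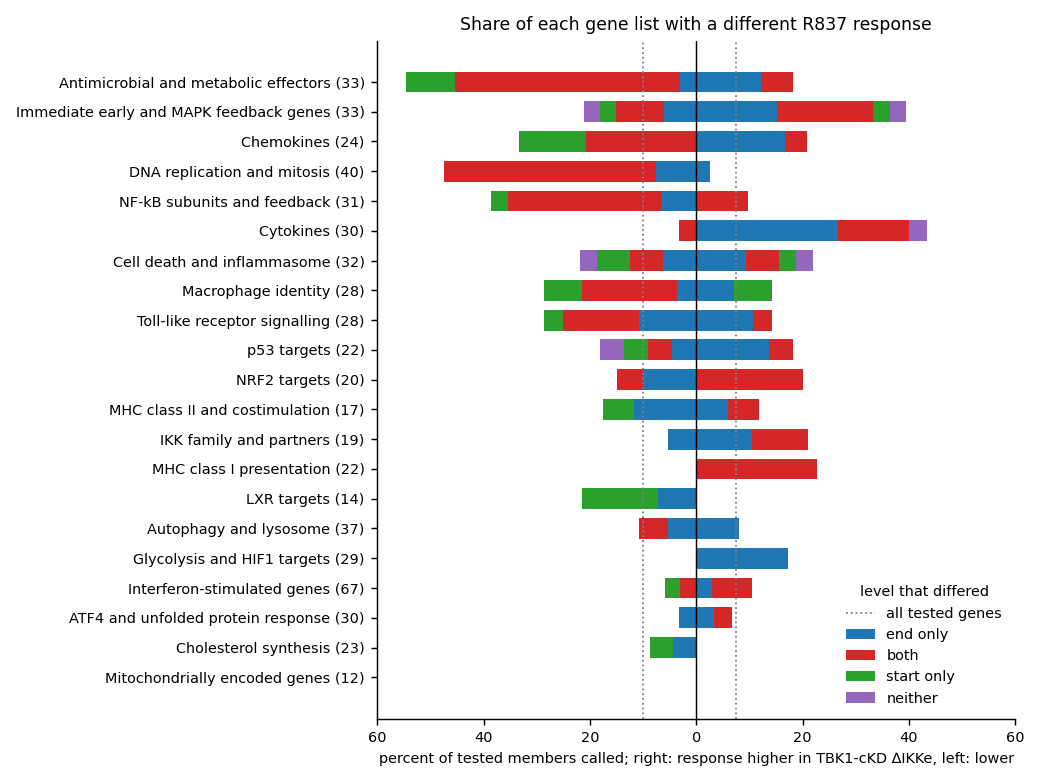
Percent of the tested members of each gene list (number tested in brackets) with a different R837 response, higher in TBK1-cKD ∆IKKe to the right and lower to the left of 0, coloured by the level that differed; dotted lines mark 7.38% and 9.96% of all tested genes. Effector, NF-kB and replication lists extend mainly to the left and cytokines to the right.

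The genes with the largest differences in each class included several outside these lists. The ranking kept only genes whose libraries did not overlap between genotypes in the condition or conditions that their class names. That separation was thus set by the choice of genes and is no further result. Slamf1 stood at 39.7, 35.6 and 35.5 CPM after R837 and 0.325, 0.112 and 0.206 CPM untreated in the libraries labelled double loss, against 1.03, 1.45 and 1.31 CPM after R837 and 0.213, 0.0945 and 0.198 CPM untreated in TBK1-WT ∆control. Slamf1, a receptor of the SLAM family, differed at the end only: every R837 library of labelled double loss was above all of TBK1-WT ∆control, and its response was 7.34 log2 in labelled double loss and 2.87 in TBK1-WT ∆control, a difference of 4.47 ± 0.52 log2 (adjusted p = 1.9e-06). At the end only, too, S100a8, a calprotectin subunit, differed by 3.49 ± 0.32 log2 (adjusted p = 8.63e-08). Downward at the end only, Zfyve28 stood at 1.25, 0.813 and 1.56 CPM after R837 and 57.6, 57.5 and 55.9 CPM untreated in the libraries labelled double loss, against 9.35, 4.86 and 4.54 CPM after R837 and 41.5, 44.7 and 44.2 CPM untreated in TBK1-WT ∆control. Zfyve28, a FYVE-domain gene, fell in both genotypes and further in labelled double loss (-2.77 ± 0.33 log2, adjusted p = 2.03e-06), as did Fgd2, an exchange factor of Cdc42 (-2.54 ± 0.36 log2, adjusted p = 2.09e-05), and Smpd3, a sphingomyelinase (-2.82 ± 0.42 log2, adjusted p = 3.64e-05). Fcrl5, an Fc receptor-like gene, had 0.378, 0.271 and 0.173 CPM after R837 in labelled double loss, against 3.01, 3.35 and 3.9 CPM in TBK1-WT ∆control, where it rose (-4.78 ± 0.68 log2, adjusted p = 2.56e-05).

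With both levels different, Ccnd2 stood at 83.1, 69.9 and 63.7 CPM after R837 and 16.7, 19.5 and 18.6 CPM untreated in the libraries labelled double loss, against 11.4, 12 and 12.8 CPM after R837 and 32.1, 36.3 and 36.1 CPM untreated in TBK1-WT ∆control. Ccnd2, cyclin D2, began lower and ended higher, rising in labelled double loss and falling in TBK1-WT ∆control, a difference of 3.51 ± 0.16 log2 (adjusted p = 4.07e-12). Cd24a stood at 2.27, 2.61 and 2.11 CPM after R837 and 1.98, 2.75 and 2.21 CPM untreated in the libraries labelled double loss, against 1.03, 0.986 and 1.11 CPM after R837 and 17, 18.4 and 16.5 CPM untreated in TBK1-WT ∆control. Cd24a, a surface glycoprotein, was low before and after R837 in labelled double loss, while it fell in TBK1-WT ∆control, which gave 4.07 ± 0.24 log2 (adjusted p = 1.11e-10). Tnc, a matrix glycoprotein, and Timp1, an inhibitor of metalloproteinases, began -1.49 and -1.0 log2 and ended 2.24 and 2.60 log2 relative to TBK1-WT ∆control.

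Beside Marco, the start-only class included Mycl, of the Myc family. Mycl stood at 2.42, 3.22 and 2.05 CPM after R837 and 9.82, 11.3 and 10.1 CPM untreated in the libraries labelled double loss, against 1.59, 2.46 and 2.03 CPM after R837 and 1.58, 1.49 and 1.42 CPM untreated in TBK1-WT ∆control. Its untreated levels in labelled double loss were above those of the 9 other libraries, and the difference was -2.45 ± 0.34 log2 (adjusted p = 1.77e-05). P2rx5 (an ATP-gated channel), Spib (an ETS factor) and Efna2 (an ephrin) also began higher, with differences of -3.91, -2.85 and -2.30 log2; Spib was -1.86 log2 and not called with R837 libraries of the low level alone (adjusted p = 0.0601). Hs3st3b1 (a heparan sulfate sulfotransferase), Mboat2 (an acyltransferase), Tnfsf8 (CD30 ligand), Trp53i11 and Stk26 (a kinase) began lower, with differences between 2.08 and 2.46 log2. Stk26 was 1.36 log2 and not called among high-level libraries (adjusted p = 0.272), and Stk26 and Trp53i11 lost the call without 1 library (highest adjusted p = 0.109 and 0.0636). With neither level called, Slc4a11 (a transporter) and Tnfsf14 (the cytokine LIGHT) had larger responses (2.38 and 1.71 log2), and Kcnn1 (a potassium channel) and Rapgef3 (a cAMP-activated exchange factor) lower ones (-1.61 and -1.37). These 4 lost the call without 1 library (highest adjusted p between 0.0631 and 0.107).

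Genes of macrophage identity differed for 12 of 28 (42.9%), 4 higher and 8 lower. Adgre1 stood at 5544, 5687 and 4824 CPM after R837 and 2544, 2488 and 2422 CPM untreated in the libraries labelled double loss, against 7619, 7975 and 8234 CPM after R837 and 2203, 2132 and 2156 CPM untreated in TBK1-WT ∆control. Adgre1 rose in both genotypes and less in labelled double loss (-0.77 ± 0.09 log2, adjusted p = 1.13e-06), as did Csf1r, the M-CSF receptor (-0.50 ± 0.08 log2, adjusted p = 0.000193). Cx3cr1, the fractalkine receptor, fell in labelled double loss and rose in TBK1-WT ∆control, a difference of -1.22 ± 0.12 log2 (adjusted p = 1.25e-07). Mrc1, the mannose receptor, began lower and fell less (1.01 ± 0.16 log2, adjusted p = 9.35e-05, start only). The 30 macrophage genes summed to 40296 to 44242 CPM after R837 and 39524 to 41627 untreated in labelled double loss, against 43719 to 44967 and 30464 to 31823 in TBK1-WT ∆control. The 14 neutrophil markers summed to 1805 to 2075 CPM after R837 and 993 to 1008 untreated in labelled double loss, against 825 to 847 and 78.8 to 82.6 in TBK1-WT ∆control. Most of the untreated sum in labelled double loss was Mmp9, which macrophages and osteoclasts also express, with a mean of 932.6 CPM untreated, against 30.9 CPM in TBK1-WT ∆control. Of the 10 tested, 3 were called higher and 4 lower at the start, with a median of -0.95 log2. The lower ones were Ngp, Ltf and Mpo, which encode granule proteins, and S100a9, a calprotectin subunit, with 5 against 176, 11 against 197, 5 against 36 and 14 against 292 counts over the 3 untreated libraries of labelled double loss and of TBK1-WT ∆control, in that order. The response differed for Mmp9 (-3.66 ± 0.14 log2, adjusted p = 1.16e-13) and S100a8 (20%, against 17.3% of all genes). Of the markers of other cells, 1 gene in each list had a different response: Il7r of 7 tested lymphocyte markers (14.3%), Kit of 3 of mast cells (33.3%), Batf3 of 7 of dendritic cells (14.3%), Vwf of 4 of erythroid cells and megakaryocytes (25%) and Pdgfrb of 13 of stromal cells (7.69%). Of the stromal list in labelled double loss, 7 genes were called lower and 1 higher at the start (median -1.09 log2) and 7 lower and 2 higher at the end (median -1.22 log2). No count was found for the defining genes Gzma, Cma1, Mcpt4, Tpsb2 and Hbb-bs in the 12 libraries. Of 9 tested osteoclast markers 4 had a lower response (Mmp9, Tnfrsf11a, Dcstamp and Nfatc1). The 11 listed osteoclast markers summed to 1786 to 2222 CPM after R837 and 1846 to 1871 untreated in labelled double loss, against 1071 to 1102 and 814 to 843 in TBK1-WT ∆control. Mmp9 is part of this sum too, with the untreated means of 932.6 and 30.9 CPM given above. Il7r, Batf3 and Nfatc1 lost the call without 1 library. With R837 libraries of the low level alone Kit and Nfatc1 lost it (adjusted p = 0.0834 and 0.0652), and with high-level libraries alone Batf3 did (adjusted p = 0.464). The part of these markers in the results was not tested.

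The response in labelled double loss was also set against that of each single loss, which shares no TBK1-WT ∆control library. It differed for 2670 genes (18.2%; 8.09% higher and 10.1% lower) from TBK1-cKD ∆control and for 2174 (14.8%; 6.64% higher and 8.17% lower) from TBK1-WT ∆IKKe. All 6 R837 libraries of the single losses were at the low nuclear RNA level, as against 2 of 3 in labelled double loss; with R837 libraries of the low level alone the counts were 3729 and 3107. For 1439 genes it differed from all 3 other genotypes, and 1437 of these differed in 1 direction, 602 higher and 835 lower; the 3 tests share the libraries labelled double loss. Acod1 differed by -6.02 ± 0.16 log2 (adjusted p = 9.91e-16) from TBK1-cKD ∆control and -6.81 ± 0.18 log2 (adjusted p = 3.61e-16) from TBK1-WT ∆IKKe. Ccnd1 did so by -1.59 ± 0.10 log2 (adjusted p = 7.23e-10) and -1.44 ± 0.10 log2 (adjusted p = 3.67e-09). Sp100 had no called difference from TBK1-cKD ∆control (0.16 ± 0.13 log2, adjusted p = 0.456) and was above TBK1-WT ∆IKKe (1.18 ± 0.13 log2, adjusted p = 1.94e-06), as were Ifi44 and Tap2. Irf1 and Cxcl10 had lower responses than both, with differences of -1.87 and -4.65 log2 against TBK1-cKD ∆control.

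Against TBK1-WT ∆control, the response of TBK1-cKD ∆control differed for 129 genes (0.879%; 0.674% higher and 0.204% lower) and that of TBK1-WT ∆IKKe for 36 (0.245%; 0.129% higher and 0.116% lower); these comparisons share the TBK1-WT ∆control libraries with the one above and are set side by side only. TBK1-WT ∆control had 1 R837 library at the high nuclear RNA level, while all R837 libraries of the single losses were at the low level. The part of this in the counts of 129 and 36 was not tested, and they were not repeated by level. Acod1 had -6.84 log2 in labelled double loss, -0.81 in TBK1-cKD ∆control and -0.03 in TBK1-WT ∆IKKe. Timp1 had 3.6 log2 (adjusted p = 6.36e-11), 1.0 log2 (adjusted p = 0.0158) and 1.04 log2 (adjusted p = 0.0178) in the same order. Cxcl10 was opposite in sign, with -1.90 log2 (adjusted p = 0.00113) in labelled double loss and 2.75 log2 (adjusted p = 0.00394) in TBK1-cKD ∆control.

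**Figure D5:**
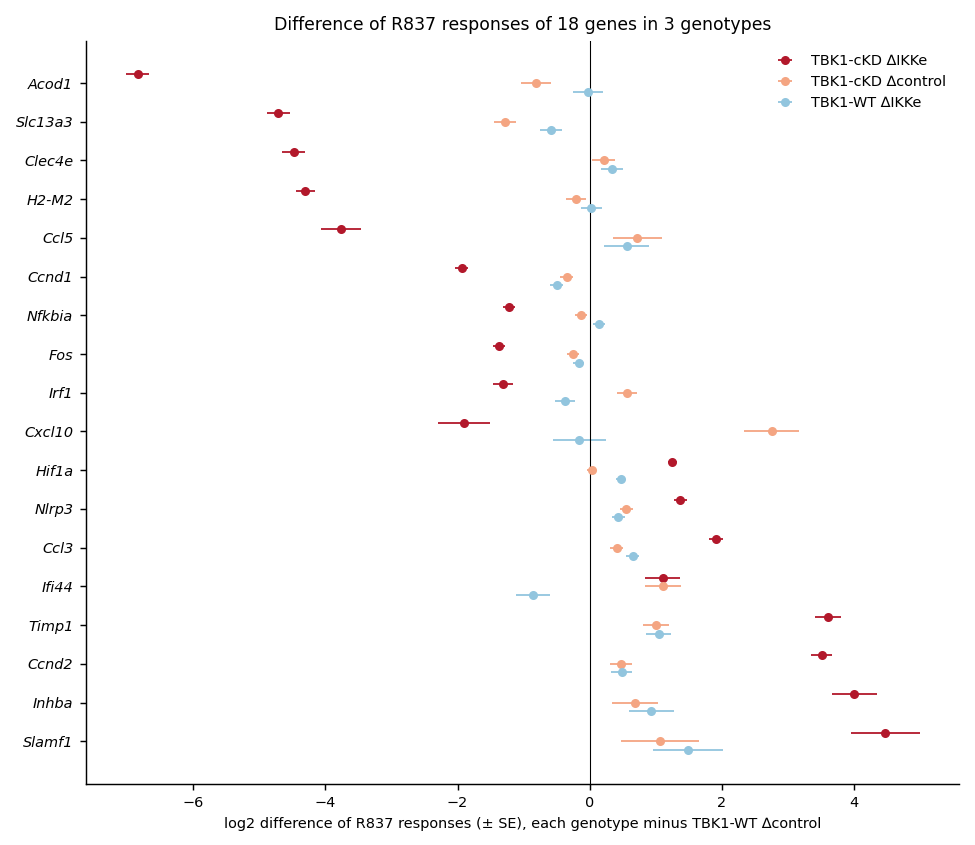
Difference of R837 responses in log2 (± SE of the fit) of 18 genes in TBK1-cKD ∆IKKe, TBK1-cKD ∆control and TBK1-WT ∆IKKe, each minus TBK1-WT ∆control, whose libraries all 3 share. For Acod1, Slc13a3, Clec4e and H2-M2 the TBK1-cKD ∆IKKe points lie below -4 and the single losses between -1.28 and 0.34.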

How the data were processed

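Bulk RNA-seq libraries of mouse bone marrow-derived macrophages, 3 mice for each of 8 groups of genotype and treatment, were analysed. Per the submitters' processing notes, reads were aligned with GSNAP to GRCm38; per the labels' protocols they were 50 bp single-end reads from a TruSeq v2 kit that does not mark strand, so overlapping antisense genes cannot be separated. The authors deposited per library a table of gene counts, not normalized, with RPKM values beside them. The deposited RPKM values, scaled by the authors to length and reads, served only to estimate reads outside gene counts. Genes without a symbol (233, 0.0187% of counts) were kept in the fit and not named.

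Counts were fitted with edgeR 4.0.16 in R 4.3.3: filterByExpr (minimum count 10, minimum total 15), TMM scaling, 1 mean for each of 8 groups, 24 libraries, 16 residual degrees of freedom, common biological coefficient of variation 0.116, quasi-likelihood tests and Benjamini-Hochberg adjustment over 14681 genes at 0.05. Start, end and both responses were contrasts of the same fit. CPM levels use TMM-scaled library sizes, and ± is the SE of the fit. The p-values use the spread between libraries of a group, estimated over all 8 groups. That spread includes the nuclear RNA split within R837 groups of mixed level. Depth was 19.7 to 41.3 M counts per library. For genes with almost no untreated counts, ratios with exact 95% counting intervals, or a floor of 3 counts over a group, are given, covering counting error only. Alternatives were DESeq2 1.42.0, RLE size factors, other count filters, the 12 libraries alone and each library left out. The nuclear RNA level (divided at 7 log2 CPM) was also added as a term. Other fits kept R837 libraries of the low level with all untreated libraries, or high-level libraries alone. On simulated data, 200 genes were changed by 1 or 2 log2 in the labelled double loss R837 libraries. Of those changed by 1 log2, 93% were recovered, and of those changed by 2 log2, 100%, with 12 false calls among 14681 genes. The changed genes excluded those with low counts, all genes had the common spread, and no nuclear RNA split was simulated. Low-count genes and R837 groups of mixed level are thus not covered.

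The members and the 30 gene lists were chosen with earlier results of these data known. The rule for named genes took Tbk1, Ikbke, N4bp1 and Casp8, the 5 genes with the largest difference of responses per class and direction (2 where neither level was called) with at least 10 counts in each group, a group mean of at least 1 CPM and separate groups, and up to 4 called members per list. It named 121 genes, 115 of them called. Other list members were named after their values were seen. Some genes that the rule or the lists hold are not reported here. Promoter windows are from RefSeq (GRCm38.p6).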

Additional observations from a re-analysis of the deposited data

Results flagged for a closer look

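The R837 response of the libraries labelled TBK1-cKD ∆IKKe differed from that of TBK1-WT ∆control for 2546 genes, from that of TBK1-cKD ∆control for 2670 and from that of TBK1-WT ∆IKKe for 2174, each by edgeR's test of the difference itself. Of the named genes, 84 differed from all 3 other genotypes.

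Some named genes had called responses in opposite directions, with the difference of responses tested and called. Those that rose in labelled double loss and fell in TBK1-WT ∆control were the cyclin gene Ccnd2 (difference 3.51 log2), Hs3st3b1 (2.46), Mboat2 (2.29), the phosphatase gene Dusp5 (2.13), Irf8 (0.78), the maturation marker Cd83 (0.69) and the chaperone gene Hspa5 (0.43). Those that fell in labelled double loss and rose in TBK1-WT ∆control were P2rx5 (-3.91 log2), Efna2 (-2.30), the fractalkine receptor gene Cx3cr1 (-1.22) and Irf5 (-1.03).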

How the results depend on the processing

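Counts of genes rested most on the nuclear RNA level. With that level as a term of the fit, 1991 genes had a higher and 2429 a lower response in labelled double loss, 532 differed at the start only, 2362 at the end only and 1377 at both; against TBK1-cKD ∆control the count was 4119 and against TBK1-WT ∆IKKe 3422. With R837 libraries of the low level alone, 1708 were higher, 462 start only and 1116 both. With libraries of the high level alone, where 1 R837 library per genotype is assumed to vary like the other groups, 1673 were higher, 626 start only and 1300 both. With the 12 libraries alone, 75 differed with neither level called. All 2546 called genes kept their direction in these 3 nuclear RNA fits, with RLE size factors and with DESeq2, and 2540 did with the 12 libraries. DESeq2 called 2833 genes, 2488 of them shared, and RLE 2515. The share of higher responses among called genes was 42.6%, against 47.4% with RLE, 47.6% with DESeq2 and 48.0% with the low level alone. The cause was not tested.

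Leaving out 1 library gave 878 to 1445 higher and 1200 to 1666 lower genes, 174 to 324 start only, 1338 to 1935 end only, 465 to 746 both and 70 to 128 neither. Without TBK1-cKD ∆IKKe untreated replicate 1 the last count was 70. Against TBK1-cKD ∆control the range was 2155 to 2835, and against TBK1-WT ∆IKKe 1752 to 2272. Among the 115 named genes with a called difference no direction reversed under any alternative run. No paired analysis was possible because the labels give no replicate numbers; those used here follow the order of the records, only name libraries and do not say which shared a mouse. Genes with almost no untreated counts, such as Il6 and Csf3, have a response whose size is limited by depth.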
